A study of Homo sapiens with 6 samples.

Results

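The genes described here are 53 genes of mitosis, 52 of which encode mitotic kinases, cyclins, spindle, checkpoint, kinetochore, condensin and cytokinesis proteins, plus FAM64A (PIMREG). They were taken by name from a table of 12760 expressed genes, and all 53 were present. FAM64A was added to the list because it moved against the others, so its difference is given as a description with no test. Counts are over the other 52, which were also chosen with earlier results of these data known. The cells were MM.1S, an established human multiple myeloma line, and RNA-seq compared WT with LenR, with 3 libraries in each group. WT cells were kept in dimethyl sulfoxide (DMSO), the solvent of the drug. LenR cells were selected in lenalidomide, starting at 10 nM, with 10-fold more each month for 3 months. Lenalidomide is a drug that binds cereblon and redirects its ubiquitin ligase to the transcription factors IKZF1 and IKZF3. The genotype label reads WT for all 6 samples, and the sources used here do not state whether drug was still present at harvest. Replicates are labelled as biological without word on separate selections of the 3 LenR cultures, so p-values cover only the spread among the cultures at hand.

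Mitotic genes are switched on together late in the cell cycle. In resting and early cycling cells the DREAM complex, with the MuvB core and its DNA-binding subunit LIN54, holds them off, and later MuvB joins MYBL2 (B-MYB) and FOXM1 to switch them on. Their products condense chromosomes, build the spindle, watch over its attachment to kinetochores and cut the cell apart, and many are destroyed at the end of mitosis by the anaphase-promoting complex. In a growing myeloma culture their transcripts come from the cells that are between S phase and division, so a level in bulk RNA depends both on how many cells are there and on how much each one makes, and these cannot be told apart here.

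The table held 14500140 to 17387914 reads per library, as worked out from the steps of its FPKM values (sequenced fragments corrected for gene length and library size). The first principal component of all tested genes (58.1% of the variance) separated WT from LenR. The second (26.8%) put WT 3 (-14.0) and LenR 2 (-13.7) on the negative side and the other 4 libraries on the positive side. Among those 4, LenR 3 (12.7) lay nearly as far out, beyond WT 2 (6.62), WT 1 (5.79) and LenR 1 (2.62). Results are also given without WT 3 and LenR 2. WT 1 and WT 2 were closer to each other than any other pair, with a median chi-square of 1.17 times the value that read sampling alone gives, against 3.87 for the next closest pair, LenR 1 and LenR 2. They were kept as separate samples, and counts with both averaged into 1 sample are given as well. All 10 plasma cell markers fixed for a check of cell type were in the table. Their summed levels were 4040 to 4650 FPKM in WT and 4725 to 5657 FPKM in LenR. Much of this sum was JCHAIN, at 1871 to 2423 FPKM in WT and 2198 to 3044 FPKM in LenR, which did not pass. Of the 10 markers 5 passed upward, where 8.57% of all tested genes did. Of marker lists of other cells, the table held 2 of 8 for T and NK cells and 1 of 8 for myeloid cells. It held 1 of 5 for erythroid cells and 2 of 8 for epithelial and stromal cells. The highest was the vimentin gene VIM, at 283 to 301 FPKM in WT and 237 to 268 FPKM in LenR. The rest reached at most 19.4 FPKM, in the myeloid marker CD68.

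The 52 mitotic genes lay mostly a little lower in LenR. They were chosen with earlier results of these data known, so the counts below describe them and are no independent test of a shift. Of these genes, 12 passed downward and none upward, where 6.57% of the 11276 tested genes (mean over all libraries of 1 FPKM or more) passed downward and 8.57% upward (limma on log2(FPKM + 1), Benjamini-Hochberg adjusted p below 0.05). At an unadjusted p below 0.05, 28 lay lower, where the share of all tested genes was 12.8%, and none lay higher. The fold change was below 0 for 49 of the 52, against 50.5% of tested genes, and the median log2 fold change was -0.19, against -0.0023 over all tested genes. In 31 genes every LenR library lay below every WT library, against 16.5% of tested genes, and in 1 gene, BUB3, every LenR library lay above (18% of tested genes). The 52 genes were well expressed, with a median WT mean of 53.4 FPKM against 12.3 FPKM over the tested genes, and all of them passed the filter on low values. Of the 40 that did not pass, 16 had a 95% interval wholly below 0 and 24 had one that spanned 0. The median half-width of these intervals over the 52 genes was 0.19, about as large as the median fold change itself.

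**Figure D1:**
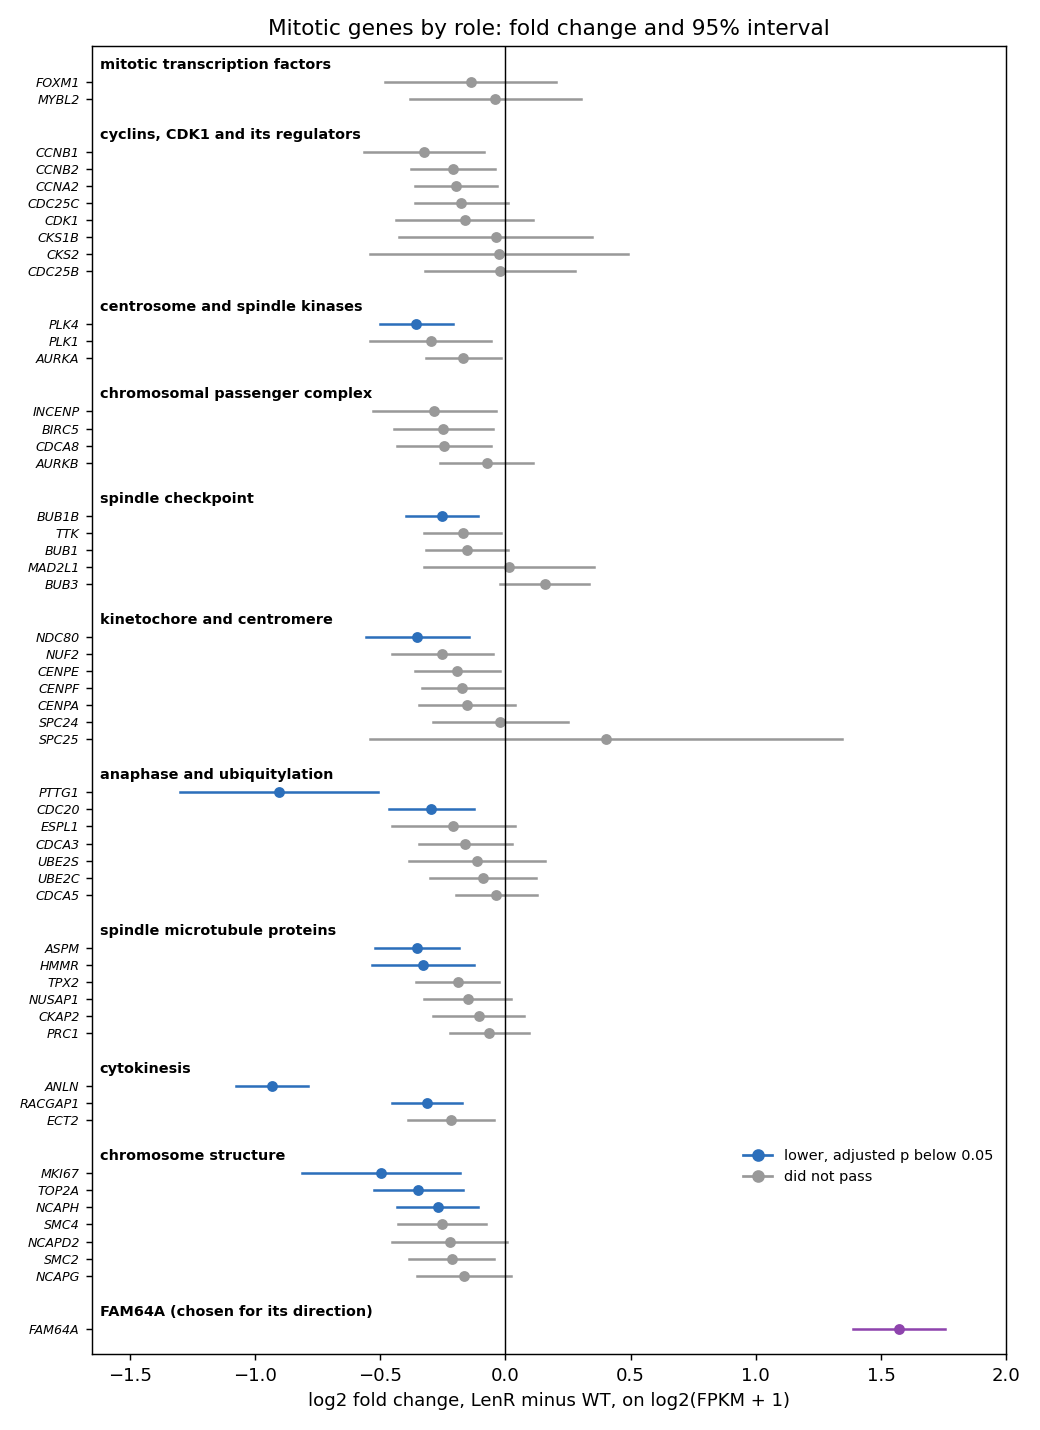
Log2 fold change (LenR minus WT, horizontal axis, on the log2(FPKM + 1) scale) of each of the 53 genes, grouped by role; points are fits over 3 WT and 3 LenR libraries and bars are 95% intervals. Blue genes passed downward by limma, grey genes did not pass, and FAM64A (purple, 1.57) lies far to the right of the 49 genes below 0.

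The shift was seen in each LenR library. Relative to the WT mean, the median of the 52 genes on the log2 scale was 0.035 in WT 1, close to 0 in WT 2 and -0.042 in WT 3, and -0.25, -0.20 and -0.17 in LenR 1, 2 and 3. The lowest of the WT medians thus lay above the highest of the LenR medians. Together the 52 genes took 1.01%, 0.997% and 1.02% of the reads of the table in the WT libraries and 0.834%, 0.904% and 0.870% in the LenR libraries. Their fold changes were below 0 in 46 genes when only WT 1, WT 2, LenR 1 and LenR 3 were compared (50.4% of tested genes), and in 47 genes between LenR 2 and WT 3 (50.2%). In both of these separate comparisons 42 of the 52 genes lay below 0, against 38.8% of tested genes.

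**Figure D2:**
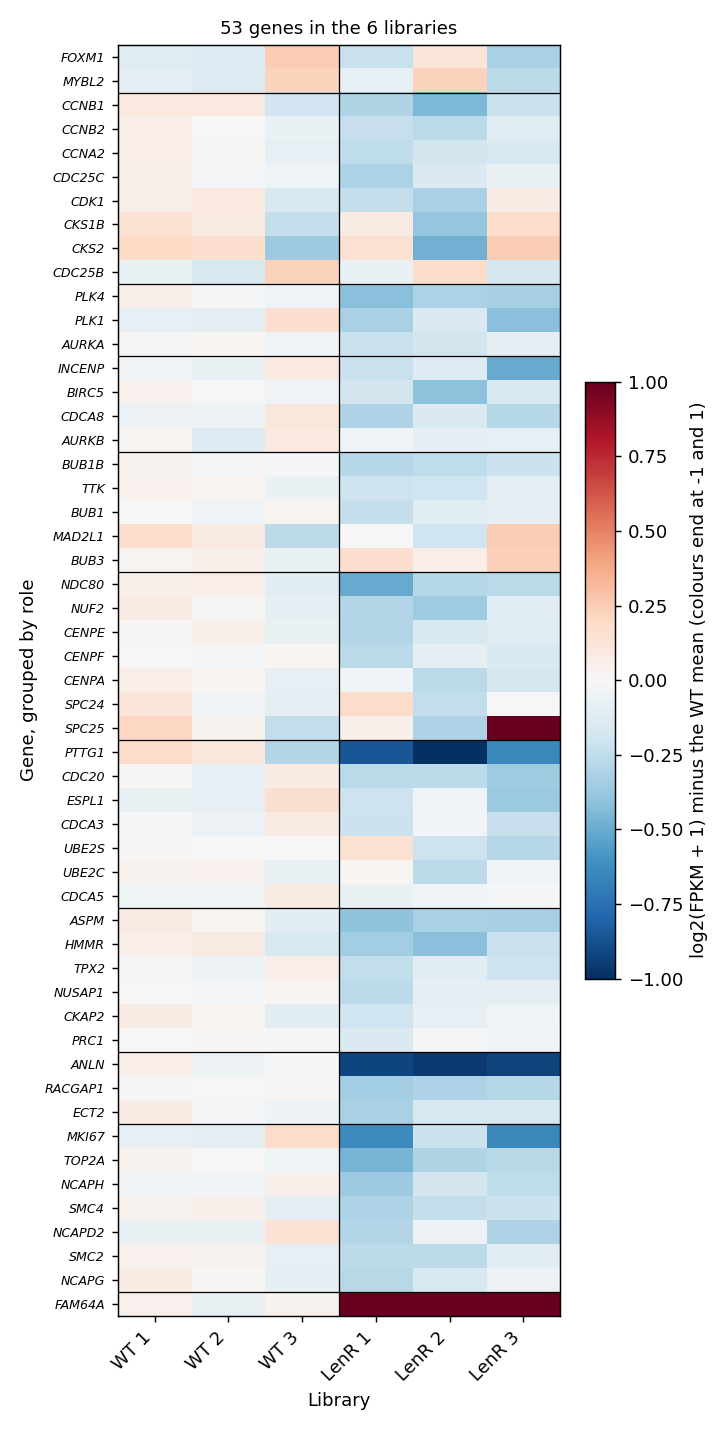
Log2(FPKM + 1) minus the WT mean for the 53 genes (rows, by role) in each of the 6 libraries (columns); red is higher and blue lower than the WT mean, and colours end at -1 and 1. The LenR columns are mostly blue, with ANLN and PTTG1 darkest, while FAM64A and SPC25 in LenR 3 reach the red end of the scale.

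DREAM and the MYBL2 and FOXM1 complexes reach mitotic promoters through the cell cycle genes homology region (CHR), often near a CCAAT box, which binds NF-Y. RefSeq promoters (GRCh38.p14, 250 bases before to 50 bases after the start) were found for 44 of the 53 genes. The windows were searched on both strands for TTTGAA or TTCGAA as the CHR letters and for CCAAT, and a gene counted if any of its windows held the letters. CHR letters were found in 34 of the 44 genes (77.3%), against 15.3% of the 8717 tested genes with a window, and CCAAT letters in 33 (75%), against 43.5%. Both stood in 1 window in 56.8% of the 44 genes and in 6.38% of the tested genes. CHR letters were in 9 of 11 called genes (81.8%) and in 25 of 33 genes that did not pass (75.8%). The order was reversed for CCAAT letters, in 8 called genes (72.7%) and 25 that did not pass (75.8%). It was also reversed for both in 1 window, in 5 (45.5%) and 20 (60.6%) of these genes. These differences were not tested. A match is a description of these letters and not evidence of binding.

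Upstream bases of 3 promoters are shown, those of the called genes of largest change with CHR letters before the start. PLK4, whose change was slightly larger than that of ASPM, holds such letters only after the start. These are ANLN at chr7:36389612-36389861 (+ strand), MKI67 at chr10:128126424-128126673 (- strand) and ASPM at chr1:197146670-197146919 (- strand), 5′ to 3′ on the strand of the gene, ending at the base before the start. Capitals mark TTTGAA, its complement TTCAAA, and CCAAT or its complement ATTGG.
ANLN: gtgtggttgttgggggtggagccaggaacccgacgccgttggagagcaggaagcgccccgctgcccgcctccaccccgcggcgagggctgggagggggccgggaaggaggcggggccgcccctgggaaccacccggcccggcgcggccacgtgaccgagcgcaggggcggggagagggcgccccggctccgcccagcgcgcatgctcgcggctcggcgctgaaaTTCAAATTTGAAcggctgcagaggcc
MKI67: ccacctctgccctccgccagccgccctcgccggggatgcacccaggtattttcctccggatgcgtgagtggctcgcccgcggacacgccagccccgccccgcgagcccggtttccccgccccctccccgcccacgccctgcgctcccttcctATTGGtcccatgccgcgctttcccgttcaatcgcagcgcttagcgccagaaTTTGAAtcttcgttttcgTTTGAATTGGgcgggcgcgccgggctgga
ASPM: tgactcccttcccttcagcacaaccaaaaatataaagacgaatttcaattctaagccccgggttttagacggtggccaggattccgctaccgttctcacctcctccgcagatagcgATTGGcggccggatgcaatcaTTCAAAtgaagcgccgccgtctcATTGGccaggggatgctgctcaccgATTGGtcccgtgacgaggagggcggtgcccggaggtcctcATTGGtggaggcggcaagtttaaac
In ANLN, TTCAAA and TTTGAA stand side by side, beginning 26 and 20 bases before the start, with no CCAAT letters. MKI67 holds TTTGAA 47 and 29 bases before the start, and the nearer one overlaps ATTGG, which begins 24 bases before the start. In ASPM 1 set of CHR letters, 113 bases before the start, lies among 4 ATTGG matches. The windows of PTTG1 and NCAPH, both called lower, held CCAAT letters but no CHR letters.

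The counts by role that follow stand beside 6.57% of all tested genes passing downward and 50.5% below 0. Every LenR library lay below every WT library in 16.5% of tested genes. Roles hold 2 to 8 genes each, too few to rank the roles by these counts. Of the 3 cytokinesis genes 2 fell, and ANLN had the largest fall of the 52. ANLN (chr7:36389806-36453791) encodes anillin, which ties actin, myosin and septins together in the contractile ring. It measured 13.2, 12.1 and 12.3 FPKM in WT 1, 2 and 3 and 6.17, 5.94 and 6.11 FPKM in LenR 1, 2 and 3. The WT and LenR values did not overlap, and each group was tight, at 12.5 ± 0.575 and 6.07 ± 0.117 FPKM (SD, n = 3 each). The LenR mean was 0.485 of the WT mean (log2 fold change -0.93, SE 0.062; limma, adjusted p = 0.000119). ANLN overlaps KIAA0895 on the other strand, which had 11 to 24 reads per library, against 430 to 1106 for ANLN. RACGAP1, a subunit of the centralspindlin complex of the spindle midzone, measured 48.3, 48.9 and 49.2 FPKM in WT and 38.3, 39.1 and 39.8 FPKM in LenR. Its groups did not overlap either (log2 fold change -0.31, SE 0.06; limma, adjusted p = 0.0111). ECT2, the exchange factor that centralspindlin recruits to the cell equator, lay on the same side without passing (-0.22, adjusted p = 0.0954), although all its LenR values were below all its WT values.

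Among 7 genes of anaphase and ubiquitylation, 2 fell. PTTG1 (chr5:160421822-160428744) encodes securin, the inhibitor of separase that is destroyed at anaphase onset. It measured 78.9, 74.9 and 56.5 FPKM in WT 1, 2 and 3 and 37.8, 29.4 and 44.0 FPKM in LenR 1, 2 and 3. The groups did not overlap, but the spread was wide, and WT 3 and LenR 2 were the lowest of their groups (log2 fold change -0.90, SE 0.17; limma, adjusted p = 0.0099). PTTG1 has near-identical copies elsewhere in the genome, and how reads shared with them were counted is not given in the sources used here, so its level is uncertain. CDC20, which activates the anaphase-promoting complex, measured 82.0, 76.9 and 85.8 FPKM in WT and 67.5, 67.7 and 63.3 FPKM in LenR. Its groups did not overlap (log2 fold change -0.30, SE 0.073; limma, adjusted p = 0.0316). The separase gene ESPL1 (-0.21), the cohesin protector sororin gene CDCA5 (-0.036), CDCA3 (-0.16) and the ubiquitin-conjugating enzyme genes UBE2C (-0.089) and UBE2S (-0.11) did not pass, with adjusted p from 0.24 to 0.799 in limma. LenR and WT values overlapped in each of these 5 genes.

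Of the 7 chromosome structure genes 3 fell, and all 7 lay below 0, where 6.57% and 50.5% of all tested genes did. MKI67 (chr10:128096659-128126385) encodes Ki-67, which coats mitotic chromosomes and serves as the standard marker of proliferating cells. Its levels were 87.6, 86.4 and 105 FPKM in WT 1, 2 and 3 and 59.3, 79.9 and 59.0 FPKM in LenR 1, 2 and 3. WT 3 and LenR 2 were the highest of their groups, and no LenR library reached the lowest WT library (log2 fold change -0.50, SE 0.14; limma, adjusted p = 0.0469). TOP2A, the topoisomerase that untangles sister chromatids, measured 89.4, 87.4 and 84.3 FPKM in WT and 62.9, 70.3 and 71.6 FPKM in LenR. The WT and LenR values were apart (log2 fold change -0.35, SE 0.077; limma, adjusted p = 0.02). NCAPH, the kleisin subunit of condensin I, measured 19.9, 19.9 and 21.0 FPKM in WT and 15.5, 17.7 and 16.8 FPKM in LenR, again without overlap (log2 fold change -0.27, SE 0.07; limma, adjusted p = 0.0381). The other condensin genes did not pass, with -0.25 for SMC4 (adjusted p = 0.0621), -0.22 for NCAPD2, -0.22 for SMC2 and -0.16 for NCAPG in limma. SMC4 and SMC2 had no overlap between groups, whereas NCAPD2 and NCAPG did.

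**Figure D3:**
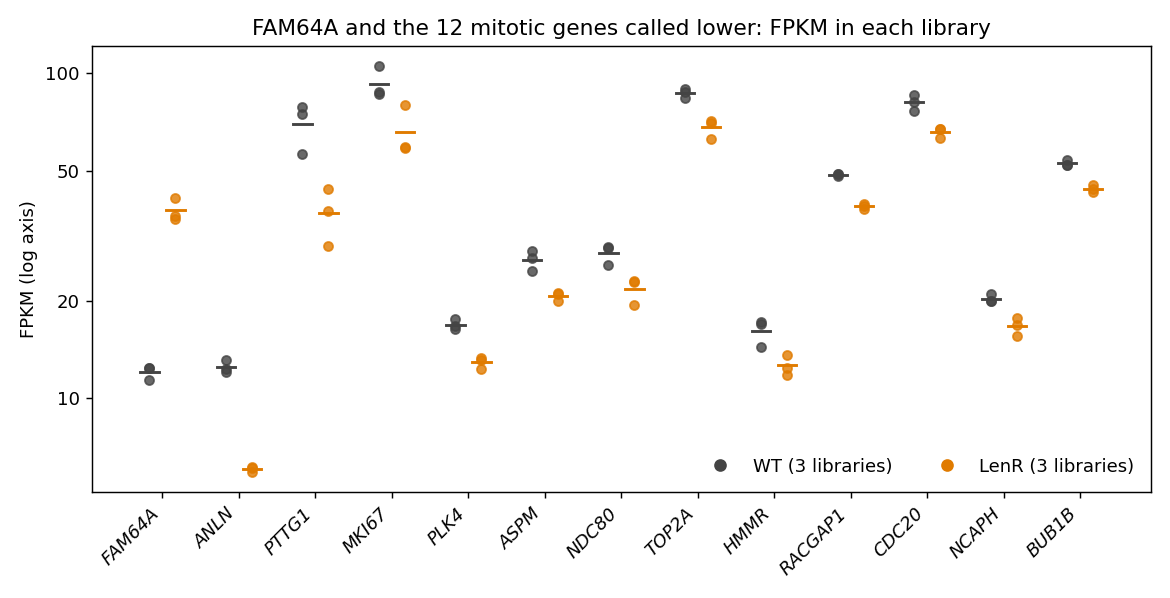
FPKM (log axis) of FAM64A and of the 12 genes called lower in each library; points are libraries (grey WT, orange LenR, 3 each) and short lines are group means. In FAM64A all LenR points lie above the WT points, and in each of the 12 other genes all LenR points lie below them.

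Of the centrosome and spindle kinases, PLK4, the kinase that starts centriole duplication, passed. It measured 17.5, 16.7 and 16.3 FPKM in WT and 12.3, 13.3 and 13.2 FPKM in LenR. Its groups were well separated (log2 fold change -0.36, SE 0.064; limma, adjusted p = 0.0079). PLK1, the main Polo-like kinase of mitotic entry and spindle assembly, measured 98.4, 97.8 and 117 FPKM in WT and 82.8, 93.8 and 77.5 FPKM in LenR. Its groups did not overlap, and it did not pass (-0.30, SE 0.1, limma adjusted p = 0.102). AURKA, which matures centrosomes, had a smaller difference with no overlap (-0.17, adjusted p = 0.13).

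Spindle microtubule genes passed in 2 of 6 cases. ASPM, which focuses microtubule minus ends at spindle poles, measured 28.3, 27.1 and 24.7 FPKM in WT and 19.9, 21.1 and 21.0 FPKM in LenR. HMMR, which helps spindle assembly at the poles, measured 16.9, 17.2 and 14.4 FPKM in WT and 12.4, 11.8 and 13.6 FPKM in LenR. In both genes the WT and LenR values were apart, with WT 3 the lowest of the WT libraries. The log2 fold change was -0.35 for ASPM (SE 0.072; limma, adjusted p = 0.0144). It was -0.33 for HMMR (SE 0.088; limma, adjusted p = 0.0432). The spindle assembly factor TPX2 (-0.19), NUSAP1 (-0.15), CKAP2 (-0.11) and the midzone bundling protein gene PRC1 (-0.065) did not pass, and only TPX2 and NUSAP1 of these had no overlap between groups.

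In the kinetochore and centromere group 1 of 7 genes passed. NDC80 encodes the subunit of the NDC80 complex that grips microtubules, and it measured 28.9, 29.2 and 25.7 FPKM in WT and 19.4, 22.8 and 23.0 FPKM in LenR. The groups did not overlap (log2 fold change -0.35, SE 0.089; limma, adjusted p = 0.0343). The other genes of the NDC80 complex did not pass. NUF2, the partner of NDC80, lay lower without overlap between groups and without passing (-0.25, limma adjusted p = 0.097). SPC24 was near 0 (-0.021, with a 95% interval from -0.29 to 0.25). SPC25 was the gene of lowest level in the list, at 2.12, 1.77 and 1.27 FPKM in WT and 1.79, 1.17 and 6.46 FPKM in LenR. Its fold change of 0.40 (SE 0.41) came from LenR 3 alone, with 304 reads there against 50 to 100 reads in the other 5 libraries, and it was -0.13 without that library. SPC25 overlaps NOSTRIN on the other strand, which had 11 to 25 reads per library. CENPE (-0.19), CENPF (-0.17) and the centromeric histone gene CENPA (-0.15) did not pass, and of these only CENPA had overlap between groups.

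The spindle checkpoint, which holds anaphase until kinetochores are attached, had 1 call among 5 genes, and 2 of the other genes lay above 0. BUB1B (BubR1), a part of the inhibitor of CDC20, measured 54.1, 52.4 and 52.2 FPKM in WT and 43.1, 44.2 and 45.4 FPKM in LenR. Both groups were narrow and did not overlap (log2 fold change -0.25, SE 0.062; limma, adjusted p = 0.0317). The kinase genes TTK (-0.17) and BUB1 (-0.15) lay on the same side without overlap and did not pass. BUB3, which carries BUB1 and BUB1B to kinetochores, was instead on the other side, at 76.2, 77.5 and 71.0 FPKM in WT and 84.0, 78.3 and 88.6 FPKM in LenR. All its LenR values were above all its WT values, and it did not pass (log2 fold change 0.16, SE 0.077; limma, adjusted p = 0.232). MAD2L1, the checkpoint signal that binds CDC20, was nearly equal in both groups, with means of 81.4 and 82.1 FPKM (95% interval -0.33 to 0.35).

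None of the 8 cyclin and CDK1 genes passed, although all lay below 0. CCNB1, the cyclin B1 that drives mitotic entry with CDK1, came nearest. It measured 85.4, 85.4 and 69.8 FPKM in WT and 64.8, 58.1 and 68.2 FPKM in LenR, without overlap (log2 fold change -0.32, SE 0.1; limma, adjusted p = 0.0787). CCNB2 (-0.21), CCNA2 (-0.20) and the phosphatase gene CDC25C (-0.18) also had no overlap between groups. CDK1 itself overlapped (-0.16, 95% interval -0.44 to 0.11), as did CDC25B (-0.021), CKS1B (-0.039) and CKS2 (-0.025), the CKS proteins being small CDK-binding adaptors.

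Nor did any of the 4 genes of the chromosomal passenger complex pass, which corrects wrong attachments and steers cytokinesis. INCENP (-0.28), survivin BIRC5 (-0.25) and borealin CDCA8 (-0.25) each had all LenR values below all WT values, with limma adjusted p from 0.086 to 0.122. The kinase subunit AURKB had 86.1, 76.8 and 90.4 FPKM in WT and 81.6, 79.0 and 79.3 FPKM in LenR, which overlap (-0.074, adjusted p = 0.614). The transcription factor genes of the program were not called either. FOXM1 measured 48.2, 47.7 and 62.9 FPKM in WT and 44.9, 57.6 and 41.8 FPKM in LenR (-0.14, 95% interval -0.48 to 0.20). MYBL2, with the highest WT mean of the list, measured 153, 149 and 191 FPKM in WT and 154, 191 and 136 FPKM in LenR (-0.04, 95% interval -0.38 to 0.30). In both genes WT 3 and LenR 2 were the highest of their groups, and the median difference of the list lies inside both intervals.

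FAM64A, a protein of dividing cells that binds the clathrin adaptor PICALM and is known as a regulator of mitotic progression, was far higher in LenR. It measured 12.4, 11.4 and 12.4 FPKM in WT 1, 2 and 3 and 41.5, 36.5 and 35.6 FPKM in LenR 1, 2 and 3, from 279 to 336 reads per WT library and 892 to 962 reads per LenR library. The lowest LenR library was 2.87 times the highest WT library, and the ratio of the group means was 3.14. The log2 fold change was 1.57 (SE 0.079), the 18th highest of the 11276 tested genes, and it was 1.62 over the 4 libraries without WT 3 and LenR 2 and 1.49 between LenR 2 and WT 3. Among the mitotic genes its level per gene length was above that of 3 of the 52 by WT mean and of 22 by LenR mean. No window for FAM64A is in the promoter table, so none is printed.

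FAM64A lies on chromosome 17 (chr17:6444415-6451469, + strand, GRCh38), and the genes around it were centred near 0. Over the 10 tested genes on each side the median log2 fold change was -0.0015, with 10 of the 20 below 0 and values from -0.82 to 0.35. Of these neighbours, 2 passed. WSCD1, the nearest tested gene before it, rose from a mean of 20.5 to 26.4 FPKM (0.35; limma, adjusted p = 0.0288), and XAF1, an antagonist of the apoptosis inhibitor XIAP, fell from 5.29 to 2.57 FPKM (-0.82; limma, adjusted p = 0.000963). KIAA0753, the nearest tested gene after it, was at 4.65 FPKM in WT and 4.70 FPKM in LenR (0.012), and the kinetochore gene MIS12, further before it, at -0.12 did not pass. The end of FAM64A overlaps PITPNM3 on the opposite strand by 206 bases, and PITPNM3 had 16 to 22 reads per library, far fewer than FAM64A.

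Several mitotic genes lie in stretches of the genome whose other genes moved too. For each of the 52 genes the median fold change of the 20 tested neighbours was taken, and 47 had one between -0.2 and 0.2. Of these 47 genes, 8 passed downward (17%) and the median was -0.18, where 4.65% of the 10422 tested genes in such places passed downward. The other 5 genes were ANLN (neighbour median -0.28), PTTG1 (-0.57), HMMR (-0.22), MKI67 (0.22) and BUB3 (0.21). Both genes of largest fall, ANLN and PTTG1, thus lay among genes that were lower themselves, whereas MKI67 fell among genes that were higher. The part of the neighbourhood in these values was not tested.

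**Figure D4:**
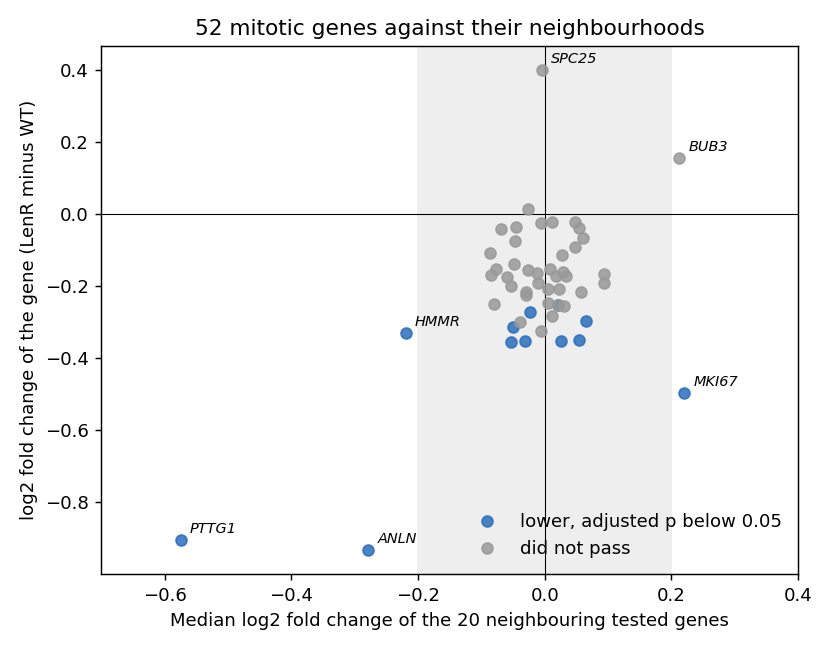
Log2 fold change of each of the 52 mitotic genes (vertical) against the median log2 fold change of its 20 neighbouring tested genes (horizontal); blue genes passed downward, grey genes did not, and the grey band marks medians between -0.2 and 0.2. Of the genes in the band, 45 lie below 0 on the vertical axis, and ANLN, PTTG1, HMMR, MKI67 and BUB3 lie outside it.

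WT 3 and LenR 2 deviated alike from their groups over the mitotic genes. The pair was picked from the second principal component of these same data, so this likeness is a description and no separate evidence. Relative to the other 2 libraries of its group, a gene was higher in both WT 3 and LenR 2 in 18 cases, lower in both in 21 and opposite in 13. FOXM1, MYBL2, CDC25B and MKI67 were higher in both, by 0.27 to 0.38 in WT 3 and by 0.31 to 0.43 in LenR 2 on the log2 scale. CKS2 was lower by 0.55 in WT 3 and by 0.69 in LenR 2, and CKS1B, MAD2L1 and PTTG1 were lower in both as well. SPC25 was at -1.07 in LenR 2, against a mean that holds its high LenR 3 value, and is included in the correlations that follow. Across the 52 genes, which are not independent replicates, the deviations of these libraries had a Pearson correlation of 0.84, a Spearman correlation with GC content of 0.68 in WT 3 and 0.32 in LenR 2, and one with gene length of 0.29 and 0.56. Without both libraries, 17 of the 52 genes passed downward in limma (7.04% of tested genes). With a term for these libraries in the model 30 did (12.7% of tested genes), and BUB3 passed upward (adjusted p = 0.0381). With the trend over GC content removed from each library 24 passed downward (10.3% of tested genes), and BUB3 passed upward again. The log2 fold change of the 52 genes itself had a Spearman correlation of -0.36 with gene length and 0.18 with GC content. The part of GC content and length in these deviations and in the fold changes was not tested.

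**Figure D5:**
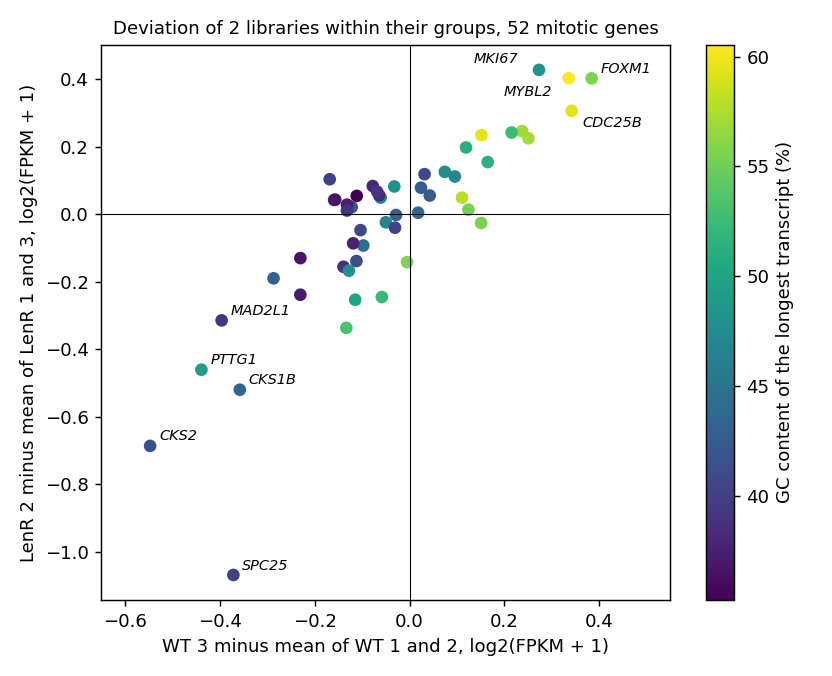
Deviation of WT 3 from the mean of WT 1 and 2 (horizontal) and of LenR 2 from the mean of LenR 1 and 3 (vertical), on the log2(FPKM + 1) scale, for the 52 mitotic genes; colour is GC content in percent. The points run from SPC25 and CKS2 at the lower left to FOXM1 and MKI67 at the upper right. The low place of SPC25 rests on its high LenR 3 value (6.46 FPKM, against 1.79 in LenR 1 and 1.17 in LenR 2).

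Leaving out single libraries ended most calls. ANLN and PTTG1 still passed whichever of the 6 libraries was omitted, with adjusted p up to 0.00194 and 0.0491 in limma. PLK4 passed in 5 of these 6 fits, losing its call without WT 1 (adjusted p = 0.0525), and RACGAP1 in 4, losing it without WT 1 or WT 2 (up to 0.0674). ASPM, NDC80 and TOP2A passed in 3 and were lost without WT 1, WT 2 or LenR 1 (up to 0.08, 0.134 and 0.104), and HMMR in 2, passing only without WT 3 or LenR 3 (up to 0.161 otherwise). MKI67, CDC20, NCAPH and BUB1B each passed in 1 fit, that without LenR 2 for the first 3 genes and without LenR 3 for BUB1B, with adjusted p up to 0.173, 0.135, 0.12 and 0.16 in the rest. The number of genes lower was 2 without WT 1 (4.09% of tested genes), 3 without WT 2 (4.18%), 9 without WT 3 (6.04%), 4 without LenR 1 (4.19%), 10 without LenR 2 (6%) and 10 without LenR 3 (5.61%). With WT 1 and WT 2 averaged into 1 sample it was 3 (4.22% of tested genes).

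Other genes of mitosis, in a list that excluded the 53, also lay mostly below 0. Of 97 tested genes, 10 passed downward (10.3%) and 2 upward in limma, with 79 below 0 and a median of -0.12. Over all tested genes 6.57% passed downward, 8.57% passed upward and 50.5% lay below 0. The largest falls were in MAD1L1, the kinetochore anchor of MAD2, from 10.5 to 5.46 FPKM (-0.83), and in HJURP, the chaperone of CENPA, from 27.1 to 18.6 FPKM (-0.52). Subunits of the anaphase-promoting complex were the 2 that rose, ANAPC7 (0.40) and ANAPC5 (0.36). These 4 genes lie in places where neighbours moved too, with neighbour medians of -0.74 for MAD1L1, -0.41 for HJURP, 0.65 for ANAPC7 and 0.39 for ANAPC5. All 11 tested mitotic kinesins lay below 0 (median -0.23), and 3 fell (27.3%), among them the chromokinesin KIF4A (-0.30) and the spindle motor KIF11 (-0.29). Of 41 genes of DNA replication, 4 fell (9.76%) and 1 rose, with a median of -0.069 and 32 below 0. Like the 10.3% of the other mitotic genes, this downward share is not far above the 6.57% of all tested genes. The 1 rise stands beside 8.57% of tested genes upward, and the 32 genes below 0 beside 50.5%. GINS1, a part of the replicative helicase, fell from 21.9 to 15.3 FPKM (-0.49), as did the ribonucleotide reductase gene RRM2 (-0.41). RFC5, a subunit of the clamp loader, rose from 18.6 to 22.5 FPKM (0.26), with a neighbour median of 0.32. Differences between these lists and the 52 genes were not tested.

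Among 18 genes that regulate mitotic transcription, 3 fell and 1 rose, where 6.57% of all tested genes passed downward and 8.57% upward. CDKN1A, which encodes the CDK inhibitor p21, fell from 50.1 to 32.4 FPKM (log2 fold change -0.61; limma, adjusted p = 0.00132). RBL1, which encodes the DREAM pocket protein p107, measured 10.7, 10.7 and 10.2 FPKM in WT and 8.11, 8.95 and 9.11 FPKM in LenR (-0.24; limma, adjusted p = 0.0463), and E2F7, a repressor of the E2F family, fell by the same amount (-0.24). RBL2, another pocket protein gene (-0.077), and LIN54, the gene of the CHR-binding subunit (-0.16), did not pass. NFYB, a subunit of the CCAAT-binding factor NF-Y, rose from 10.8 to 18.0 FPKM (0.69; limma, adjusted p = 0.00188) in a neighbourhood whose median was 0.37.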

How the data were processed

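Total RNA from 3 WT and 3 LenR cultures of MM.1S cells was sequenced. The authors' deposited file is a table of FPKM values for 12760 expressed genes, whose 6 columns were matched to samples by the names given in the descriptions. Per the submitters' processing notes, the build was hg38, and the tools, listed with no role, were edgeR 3.40.2, featureCounts 2.0.3, FastQC 0.11.9 and HISAT2 2.2.1. The sources used here do not state the annotation, strand setting or expression filter, so reads of overlapping genes (14 of the 53 genes overlap another gene of the table) may be mixed.

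FPKM is not a count, so limma 3.58.1 (R 4.3.3) was run on log2(FPKM + 1) of 11276 genes, those whose mean reached 1 FPKM. Group was the only term, with an empirical Bayes trend, two-sided p-values and Benjamini-Hochberg adjustment (threshold 0.05). Fold changes are on this scale, which understates the change of low genes. Whole reads were recovered for all 12760 genes (100%, within 0.03 reads) and tested with voom as an alternative, giving 1766 calls. Positions come from GENCODE 29 (12410 genes) and promoters from RefSeq. The fits were tested on simulated data.

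The members and the lists were chosen with earlier results of these data known. Named genes are all 53 members, of each other list the 2 called genes of largest change in each direction, RBL1, RBL2, LIN54, CDKN1A and neighbours of FAM64A; 1 further gene of the rule is not reported here. E2F7 falls outside this rule and was named after its value was seen. Same-numbered WT and LenR samples did not deviate together (correlations 0.024, -0.56 and -0.68), so the numbers were not used to pair samples.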

Additional observations from a re-analysis of the deposited data

How the results depend on the processing

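Over 23 alternatives the median of the 52 genes stayed between -0.21 and -0.17, and FAM64A between 1.51 and 1.66 (1.51 without LenR replicate 1). The count of mitotic genes lower ranged from 2 to 30, beside 12 as reported. Single-gene values were available from 22 alternatives per gene (21 for SPC25). Of 1143 single-gene values, 1013 kept their side of the threshold and direction, 43 passed anew, 61 no longer passed and 26 changed sign, in 8 genes close to 0 or of low level; the causes were not tested.

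With the replicate number as a block, 2 mitotic genes were lower (ANLN and PTTG1; 3.64% of tested genes), 2 other mitotic genes, and 907 of all genes were called; the numbers do not pair the samples. With WT 1 and WT 2 averaged the counts were 3, 3 and 1052. With a term for WT 3 and LenR 2 they were 30, 27 and 3163, and 1 mitotic gene was higher. With the GC trend removed 24 mitotic genes were lower (10.3% of tested genes), 1 was higher, and 21 other mitotic genes were lower. A minimum of 5 FPKM left 1075 of all genes called. With 1 library left out, mitotic genes lower ranged from 2 to 10, other mitotic genes lower from 2 to 11 and all genes called from 1006 to 1562.

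Sign changes, on the log2 scale, were as follows. With WT 1 and WT 2 averaged, CKS1B was at 0.021, CKS2 at 0.066 and SPC24 at 0.000397. Without WT 3 and LenR 2, CDCA5 was at 0.0012, CKS1B at 0.015, CKS2 at 0.021, MAD2L1 at -0.014 and SPC24 at 0.047. With the length trend removed MAD2L1 was at -0.0056. With 1 library left out CDC25B ranged from -0.12 to 0.093, CDCA5 from -0.058 to 0.0057, CKS1B from -0.16 to 0.13, CKS2 from -0.21 to 0.20, MAD2L1 from -0.12 to 0.12, MYBL2 from -0.17 to 0.072, SPC24 from -0.12 to 0.091 and SPC25 from -0.13 to 0.76. SPC25 had the fewest reads of the 52 genes in each library, 50 to 304. The search of protein sequences that was planned was not run.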
